A study of Mus musculus with 32 samples.

Results

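Bulk RNA-seq libraries of mouse lung endothelial cells (ECs) given siRNA against Dnmt1 and then interferon gamma (si-dnmt + IFN, n = 4) were compared with libraries of the same cells given a control siRNA and the same cytokine (si-control + IFN, n = 4). The groups were taken from the sample labels and make up 8 of the 32 libraries in the series. All genes were considered, and 15254 of the 54532 listed had enough counts to be tested. The cells were Veravec, an established mouse lung EC line with no engineered allele named in the labels. Every well was transfected for 4 h on each of a pair of consecutive days and then received IFNγ (IFN) at 1000 U/mL for 16 h. The methods list a pair of siRNA sequences against Dnmt1, and the labels do not say which library received which. The replicates are described as biological replicates of 1 cell line, so the spread between them is that between cultures. Libraries with no cytokine (si-control and si-dnmt, n = 4 each) served to show where the effect of the siRNA differed with IFN. The other 16 libraries, which received TNF at 10 ng/mL or TNF + IFN, entered only the estimate of spread.

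DNMT1 is the maintenance DNA methyltransferase. It copies the methylation of CG dinucleotides onto the newly made strand, so that its loss dilutes the mark as cells divide, and genes kept silent by promoter methylation can become active. IFNγ binds a receptor that signals through the kinases JAK1 and JAK2 to transcription factors of the STAT family, whose dimers bind gamma-activated sites (GAS) in promoters. Among the genes induced are IRF1 and other interferon regulatory factors, which bind interferon-stimulated response elements (ISRE). The known targets in ECs include the genes of antigen presentation, guanylate-binding proteins and other GTPases, antiviral genes and the chemokines that attract T cells.

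Total counts per library ranged from 18749380 to 20957935 with si-control + IFN and from 17908206 to 33500030 with si-dnmt + IFN. Levels below are CPM, that is counts scaled to a fixed library size with TMM factors, a normalization between libraries. A count of 0 in 1 of these libraries allows up to 3 counts, or 0.0896 to 0.168 CPM, and this covers counting error only. The 9 endothelial markers were present in all 8 libraries, with summed levels of 4236 to 6455 CPM under the control siRNA and 4401 to 5974 CPM under si-dnmt. Leukocyte markers summed to 146 to 204 and 136 to 154 CPM, with Adgre1, Cd3e, Cd3g, Nkg7 and Tyrobp at 0 in every library. Epithelial markers summed to 8.79 to 22.02 and 9.96 to 19.8 CPM, with Sftpc at 0, and markers of neural crest melanocytes to 6.45 to 9.32 and 6.22 to 8.96 CPM, with Dct, Sox10 and Tyrp1 at 0. Fibroblast markers summed to 229.97 to 429.8 and 171 to 270.4 CPM, with Dpt at 0, and pericyte and smooth muscle markers to 21.4 to 71.0 and 85.2 to 233 CPM. The smooth muscle sum is thus the one marker sum whose ranges did not overlap between the groups. In si-control + IFN replicate 4 the mitochondrial ribosomal RNA genes mt-Rnr1 and mt-Rnr2 measured 11.1 and 29.1 CPM, against 364 to 487 and 718 to 948 CPM in the other si-control + IFN libraries. In all groups replicates 1 and 2 lay apart from replicates 3 and 4, so results that depend on this are also given within each pair.

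A gene was called when edgeR's quasi-likelihood test gave a Benjamini-Hochberg adjusted p under 0.05 over all genes tested. With IFN present, si-dnmt changed 3103 genes (20.3% of those tested), of which 1648 were higher (10.8%) and 1455 lower (9.54%). At least 2-fold changes numbered 636 (4.17%), 402 higher and 234 lower, and at least 4-fold changes 135 higher and 15 lower. The median log2 fold change over all genes was −0.0067, and the median size among called genes was 0.577. The libraries of the groups did not overlap for 3354 genes (22%), which included 2565 (82.7%) of those called. The 2-fold rises lay low in the control: 222 of the 402 had a mean under 1 CPM in si-control + IFN, against 28 of the 234 2-fold falls. The median control level was 0.818 CPM for the 2-fold rises, 9.44 CPM for the 2-fold falls and 17.1 CPM over all genes. The control is by definition the lower group for every rise and the higher group for every fall. A gene silent in the control also passed the count filter only through another group. A part of this contrast is therefore built in, and how large a part was not tested. Scaling by library totals in place of TMM moved the split of calls from 1648 higher and 1455 lower to 2420 and 983, or from 53.1% to 71.1% higher, and shifted the median of all genes to 0.086. A fit with the replicate number as a block called 5258 genes (34.5%), 2726 higher and 2532 lower, and included all 3103 with the same direction. Counts from this blocked fit are given below where they differ from the main count by over 1.5-fold.

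The target of the siRNA, Dnmt1 (ENSMUSG00000004099), measured 86.6, 86.5, 169.6 and 176 CPM in si-control + IFN replicates 1 to 4 and 11.7, 11.1, 5.11 and 5.80 CPM in si-dnmt + IFN. The groups were far apart in every library (log2 fold change of si-dnmt + IFN over si-control + IFN, ± SE, −3.95 ± 0.38, adjusted p = 2.72e-08), and the level in si-control + IFN was higher in replicates 3 and 4 than in 1 and 2. Of 17 tested genes of the DNA methylation machinery, 3 rose and 2 fell (median −0.18), and the blocked fit called 4 and 5. Both de novo methyltransferases rose. Dnmt3b measured 1.63, 1.82, 1.64 and 1.30 CPM in si-control + IFN and 4.34, 3.15, 5.34 and 3.95 CPM in si-dnmt + IFN (1.39 ± 0.19, adjusted p = 6.55e-06), and Dnmt3a 17.7, 20.0, 20.3 and 20.95 and 34.9, 37.4, 42.0 and 39.4 CPM (0.96 ± 0.09, adjusted p = 4.1e-08). Neither gene overlapped between groups. Tdg, a glycosylase that excises oxidized methylcytosine, also rose (0.53, adjusted p = 0.0143), a call lost without si-control + IFN replicate 4 (adjusted p = 0.0577). The other fall was Zbtb4, a reader of methylated DNA (−0.41, adjusted p = 0.00757).

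The largest rises were of genes close to silent in si-control + IFN. Casp1 (ENSMUSG00000025888), the inflammatory caspase that cleaves pro-IL-1β and gasdermin D, measured 0.392, 0.520, 0.382 and 0.324 CPM in si-control + IFN and 9.34, 10.0, 8.37 and 8.83 CPM in si-dnmt + IFN, a 22.3-fold rise (4.48 ± 0.37, adjusted p = 2.72e-09). Nox1 (ENSMUSG00000031257), a superoxide-producing NADPH oxidase, went from 0.785, 0.520, 0.491 and 0.756 to 15.8, 17.7, 10.0 and 11.2 CPM (4.41 ± 0.63, adjusted p = 1.29e-05). The lowest si-dnmt + IFN library exceeded the highest si-control + IFN library by more than 10 times for both. Sstr5, a somatostatin receptor, was at 0 in a pair of si-control + IFN libraries and at most 0.0540 CPM in the others, against 0.945, 0.883, 1.79 and 1.27 CPM. Its ratio of summed counts was 45.5-fold (95% counting interval 12.3 to 380.4). Lipm, an acid lipase of the epidermis, was at 0 in another pair and at most 0.164 CPM in si-control + IFN, against 1.17, 0.841, 1.06 and 1.47 CPM, a ratio of 17.3-fold (7.21 to 54.3). Neither gene overlapped between the groups, which was a condition for naming all of the leading rises and falls.

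Further rises took in genes of inflammation and of neurons. P2rx7, the ATP-gated channel upstream of the inflammasome, measured 0.560, 0.0520, 0.218 and 0.540 CPM in si-control + IFN and 2.95, 2.61, 8.23 and 7.04 CPM in si-dnmt + IFN (3.92 ± 0.72, adjusted p = 0.000268). Ctss, a lysosomal protease that trims the MHC class II invariant chain, went from 3.59, 3.85, 1.58 and 2.43 to 29.9, 34.3, 14.3 and 14.4 CPM (3.02 ± 0.45, adjusted p = 2.01e-05). Replicates 1 and 2 were the higher pair for Ctss in both groups, and the groups did not overlap within either pair. Nefm, a neurofilament subunit, rose by 3.94 ± 0.50 on the log2 scale, with the highest level (10.6 CPM) in si-dnmt + IFN replicate 3. Klrk1, which encodes the receptor NKG2D of lymphocytes, rose by 2.98 ± 0.72 on that scale, to at most 1.39 CPM. The remaining leading rises were Strc (3.31), a stereocilia protein gene of the inner ear, Nbl1 (3.04), an antagonist of BMPs, Lrrc73 (3.05) and Cxcl2, described with the chemokines.

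To show the sequence around the starts of these genes, the windows from 250 bases before to 50 bases after the RefSeq transcription start of Casp1 (chr9:5298267-5298566, plus strand), Nox1 (chrX:134111805-134112104, minus strand) and Icosl (chr10:78069118-78069417, plus strand) follow, in the GRCm38.p6 build. Capitals mark CG dinucleotides, the bases that DNMT1 can keep methylated, and Icosl, the ligand of the T-cell co-stimulator ICOS, is shown as a contrast rich in them.
Casp1: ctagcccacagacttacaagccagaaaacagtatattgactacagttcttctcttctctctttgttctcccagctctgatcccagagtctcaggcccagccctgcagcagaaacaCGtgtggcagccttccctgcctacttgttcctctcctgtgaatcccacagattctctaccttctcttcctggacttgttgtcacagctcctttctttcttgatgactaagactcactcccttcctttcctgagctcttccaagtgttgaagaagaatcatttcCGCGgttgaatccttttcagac
Nox1: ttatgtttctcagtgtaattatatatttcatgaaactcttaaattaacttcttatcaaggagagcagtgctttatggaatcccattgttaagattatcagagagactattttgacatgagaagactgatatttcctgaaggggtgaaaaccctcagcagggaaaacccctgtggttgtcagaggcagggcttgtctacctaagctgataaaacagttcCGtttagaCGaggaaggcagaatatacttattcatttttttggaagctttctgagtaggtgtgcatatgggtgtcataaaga
Icosl: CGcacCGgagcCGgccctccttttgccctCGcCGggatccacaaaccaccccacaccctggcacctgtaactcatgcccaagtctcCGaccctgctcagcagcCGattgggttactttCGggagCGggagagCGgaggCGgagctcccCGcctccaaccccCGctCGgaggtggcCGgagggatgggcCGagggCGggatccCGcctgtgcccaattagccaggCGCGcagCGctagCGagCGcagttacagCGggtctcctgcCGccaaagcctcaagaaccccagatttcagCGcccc
These windows held 3, 2 and 26 CG dinucleotides, where the median over 8382 tested genes with a single RefSeq window was 21.

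Across the genes with a single window, those that rose at least 2-fold had fewer CG dinucleotides than tested genes at large. The median was 12.5 for 220 such genes and 8 for the 68 that rose at least 4-fold, against 19 for 115 genes that fell at least 2-fold. Windows with 5 or fewer made up 29.1% of the 2-fold rises, 42.6% of the 4-fold rises, 14.8% of the 2-fold falls and 10.5% of all. Lowly expressed genes have fewer CG dinucleotides in any case: in the quartile with the lowest mean levels the median was 14. Within that quartile the 155 2-fold rises had a median of 9, and 36.8% of them held 5 or fewer, against 25.1% of the quartile. Elsewhere the rises were few: their median was 21 against 20 for the second quartile (35 rises), 22 against 22 for the third (16 rises) and 12.5 against 24 for the highest (14 rises). These are descriptions of the windows, and methylation was not measured in these libraries.

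**Figure D1:**
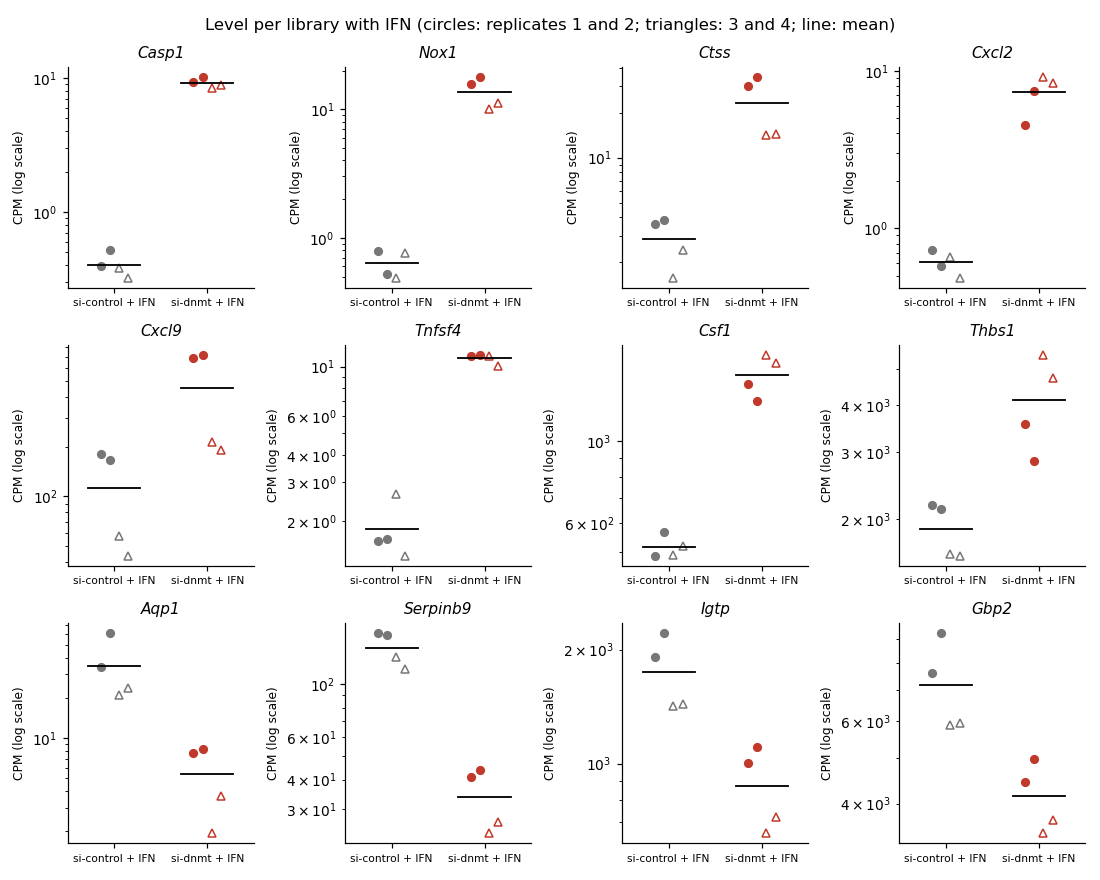
Levels (CPM, log axis) of 12 named genes in each library of si-control + IFN (grey) and si-dnmt + IFN (red), with circles for replicates 1 and 2, triangles for 3 and 4 and a line at the mean. The groups do not overlap for any of the 12 genes, which was a condition for naming the leading rises and falls among them. For Casp1, Ctss, Cxcl9, Aqp1, Serpinb9, Igtp and Gbp2 replicates 1 and 2 lie above 3 and 4 within each group.

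The falls were led, beside Dnmt1, by Wfdc17, a secreted whey acidic protein domain gene of activated macrophages. It measured 2.47, 2.03, 0.382 and 0.324 CPM in si-control + IFN and 0.167, 0.0841, 0.0460 and 0 CPM in si-dnmt + IFN, a count ratio of 21.3-fold (95% counting interval 9.41 to 59.4). Aqp1, the water channel of capillary ECs, measured 33.8, 60.7, 20.8 and 23.6 CPM and 7.67, 8.32, 1.93 and 3.66 CPM (−2.70 ± 0.47, adjusted p = 0.000157). Serpinb9, an inhibitor of granzyme B, measured 164, 160.4, 130.1 and 116 CPM and 40.9, 43.6, 23.8 and 26.7 CPM (−2.08 ± 0.21, adjusted p = 7.6e-08). All si-dnmt + IFN libraries lay below all si-control + IFN libraries for these genes, as the choice of the leading falls required. Cd28, a co-stimulatory receptor better known from T cells, fell from 1.29, 0.728, 1.69 and 1.30 to 0.111, 0.462, 0.138 and 0.115 CPM (−2.56 ± 0.55, adjusted p = 0.00123).

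Further falls were Ksr2 (−2.30 ± 0.44), a scaffold of the RAF-MEK-ERK cascade, Lmcd1 (−2.16 ± 0.43), a LIM domain cofactor, Slco5a1 (−2.11 ± 0.47), a member of the organic anion transporter family, and Pla2g7 (−2.03 ± 0.46), which hydrolyses platelet-activating factor. Slc45a4, a solute carrier, had the smallest error of the leading falls (−1.96 ± 0.15, adjusted p = 9.66e-10). Cbx3-ps7, a processed pseudogene of the heterochromatin protein gene Cbx3, fell too (−1.95 ± 0.48). The parent gene Cbx3 (−1.73 ± 0.18, adjusted p = 1.51e-07) and the copy Cbx3-ps6 (−1.75), both looked up after these values were seen, were lower as well, and reads of near-identical copies may be shared among them. Cbx3 measured 159, 137, 248 and 193 CPM in si-control + IFN and 55.5, 63.6, 51.2 and 52.2 CPM in si-dnmt + IFN.

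Among the most abundant genes that rose at least 2-fold were Thbs1, Csf1, Ptgs2 and Ccng1, and the most abundant that fell as much were Vim, Igtp, Ctla2a, Myct1 and Nus1. Thbs1, the anti-angiogenic matrix protein thrombospondin-1, measured 2171, 2121, 1614 and 1599.6 CPM in si-control + IFN and 3563, 2854, 5422 and 4722 CPM in si-dnmt + IFN (1.14 ± 0.20, adjusted p = 0.000123). The rise was larger in replicates 3 and 4 (log2 fold change 1.66) than in 1 and 2 (0.57). Csf1, the macrophage growth factor, measured 490.1, 567, 493 and 520.1 and 1423, 1282, 1699 and 1617 CPM (1.54 ± 0.14, adjusted p = 8.58e-09). Vim, the intermediate filament protein of mesenchymal cells and ECs, measured 2224, 2692, 3606 and 4274 and 1327, 1301, 1666 and 1893 CPM (−1.05 ± 0.22, adjusted p = 0.00104). Myct1, a gene known from ECs (−1.004 ± 0.27), Ctla2a, a cathepsin inhibitor (−1.11 ± 0.25), and Nus1, a subunit of the dolichol-forming prenyltransferase (−1.07 ± 0.23), had falls of like size. Ptgs2, the inducible cyclooxygenase, rose (1.18, adjusted p = 0.0143) but lost its call without si-dnmt + IFN replicate 3 (adjusted p = 0.067).

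Gene lists were read by their called members, beside the 20.3% of all genes called and their median of −0.0067. Of 19 chemokines tested 8 rose and 0 fell, with a median log2 fold change of 0.93. The neutrophil-attracting CXC chemokines, ligands of CXCR2, had the largest rises. Cxcl2 (ENSMUSG00000058427) measured 0.728, 0.572, 0.655 and 0.486 CPM in si-control + IFN and 4.50, 7.48, 9.06 and 8.39 CPM in si-dnmt + IFN (3.59 ± 0.58, adjusted p = 6.29e-05). Cxcl1 went from 11.6, 22.9, 7.75 and 9.61 to 54.2, 82.4, 89.1 and 73.7 CPM (2.53 ± 0.45, adjusted p = 0.000164), Cxcl3 from 0.672, 0.936, 1.31 and 1.78 to 4.84, 7.31, 7.41 and 6.00 CPM (2.44 ± 0.46, adjusted p = 0.000325), and Cxcl5 from 3.98, 5.98, 10.8 and 11.1 to 19.7, 29.6, 59.0 and 48.4 CPM (2.30 ± 0.42, adjusted p = 0.000222). For each of these the lowest si-dnmt + IFN library exceeded the highest si-control + IFN library, as the choice of the leading rises required for Cxcl2. The remaining called members were Cxcl9 (2.01), Cxcl12 (1.40), Cx3cl1 (1.30) and Cxcl16 (0.93).

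The CXCR3 ligands, which attract activated T cells and are classical IFNγ targets, did not move as one. Cxcl9 measured 179.9, 167, 57.7 and 43.7 CPM in si-control + IFN and 687, 714, 212 and 190.2 CPM in si-dnmt + IFN (2.01 ± 0.50, adjusted p = 0.00488). Replicates 1 and 2 had the higher level in both groups, and the log2 fold change was alike within each pair (2.00 and 1.99). Cxcl10 measured 381, 437, 172 and 165 CPM and 434, 430.4, 279.6 and 319 CPM (0.34 ± 0.27, adjusted p = 0.416), and Cxcl11 24.0, 22.6, 2.67 and 3.56 CPM and 22.4, 26.7, 9.98 and 9.46 CPM (0.37 ± 0.49, adjusted p = 0.65). Their libraries overlapped between groups, and the log2 fold changes, 0.067 and 0.067 within replicates 1 and 2, were 0.83 and 1.63 within replicates 3 and 4. Neither Ccl5 (0.31 ± 0.35, adjusted p = 0.576) nor Ccl2 (0.49 ± 0.30, adjusted p = 0.27) passed the test, and Ccl2, which attracts monocytes, did so with the block (adjusted p = 0.0182).

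Of 15 inflammatory cytokines and growth factors tested, 3 rose and 0 fell (median 1.14), and the blocked fit called 5 and 0. Besides Csf1, these were Lif, an interleukin-6 family cytokine, which went from 3.31, 3.69, 3.49 and 4.81 to 12.7, 10.8, 13.7 and 12.95 CPM (1.71 ± 0.26, adjusted p = 3.2e-05), and Csf2, the granulocyte-macrophage factor GM-CSF, with at most 0.757 CPM in any library and a count ratio of 10.3-fold (3.28 to 51.9). Csf2 had counts in only 1 si-control + IFN library, replicate 1, and its fitted change was 3.19 with that library and 6.16 without it. Of 23 NF-κB subunits and feedback genes, 7 rose and 1 fell (median 0.31), and the blocked fit called 14 and 1. Tnfaip3, the deubiquitinase A20 that restrains NF-κB, measured 24.2, 24.3, 25.1 and 25.4 CPM in si-control + IFN and 49.2, 43.0, 66.6 and 68.8 CPM in si-dnmt + IFN (1.201 ± 0.17, adjusted p = 1.45e-05). The inhibitor gene Nfkbid (1.11, adjusted p = 0.00632) and the subunit gene Relb (0.62, adjusted p = 0.012) rose too, the latter call lost without si-control + IFN replicate 3 (adjusted p = 0.0665). Nfkbib (0.55, adjusted p = 0.00163) and the subunit genes Nfkb2 (0.39, adjusted p = 0.0405), Rela (0.37, adjusted p = 0.0134) and Nfkb1 (0.29, adjusted p = 0.00422) had smaller rises. The fall was of Cyld, another deubiquitinase of the pathway (−0.86, adjusted p = 0.000217).

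The genes of the IFNγ receptor pathway itself seldom passed the test. Of 20 receptor, JAK-STAT and feedback genes, 0 rose and 2 fell (median −0.12), and the blocked fit called 0 and 6. With library totals the counts were 1 and 1. The larger fall was of Stat5b, which measured 76.5, 83.8, 75.5 and 87.9 CPM in si-control + IFN and 37.1, 38.5, 24.1 and 26.3 CPM in si-dnmt + IFN (−1.36 ± 0.18, adjusted p = 3.92e-06). The other was Ptpn11, which encodes the phosphatase SHP2 (−0.26, adjusted p = 0.0135), a call lost with library totals (adjusted p = 0.0724) and without si-dnmt + IFN replicate 4 (adjusted p = 0.0516). Socs1, a feedback inhibitor of JAK kinases, gave 0.19 ± 0.24, adjusted p = 0.631.

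Of 9 interferon regulatory factors, 1 rose and 0 fell (median 0.0086), and the blocked fit called 2 and 2. The rise was of Irf5, from 1.18, 1.66, 1.31 and 1.35 to 3.89, 3.36, 3.96 and 5.28 CPM (1.59 ± 0.28, adjusted p = 0.000146). Irf1, an early IFNγ target, gave −0.24 ± 0.14, adjusted p = 0.247 and passed only with the block (adjusted p = 0.0317). Of 12 genes of MHC class II presentation, 1 fell and 0 rose (median −0.32), the fall being of Rfxap, a subunit of the RFX complex that drives these promoters (−0.70, adjusted p = 0.0039). The blocked fit called 5 lower, among them the master regulator Ciita (−0.50 ± 0.48, adjusted p = 0.507, with the block adjusted p = 0.0148) and the class II chain gene H2-Ab1 (−0.55 ± 0.55, adjusted p = 0.527, with the block 0.0118). Ciita measured 238, 278, 100.1 and 124 CPM in si-control + IFN and 182, 186, 71.3 and 84.6 CPM in si-dnmt + IFN. The pairs of replicates overlapped across groups, while within each pair both si-dnmt + IFN libraries were the lower. Cd74, the invariant chain, gave −0.16 ± 0.53, adjusted p = 0.876.

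Of 23 genes of MHC class I presentation, 1 rose and 0 fell (median −0.14), and the blocked fit called 2 and 1. The rise was of Calr, the chaperone calreticulin (0.34, adjusted p = 0.0123). The light chain gene B2m measured 4444, 5089, 3106 and 3351 CPM in si-control + IFN and 3410.1, 3847, 2201 and 2482 CPM in si-dnmt + IFN, which was not called (−0.42 ± 0.23, adjusted p = 0.204) but was lower with the block (adjusted p = 0.000434). The heavy chain gene H2-K1 (−0.24 ± 0.33, adjusted p = 0.674), the peptide transporter gene Tap1 (−0.14 ± 0.18, adjusted p = 0.654) and the immunoproteasome gene Psmb8 (−0.27 ± 0.25, adjusted p = 0.505) did not pass either fit.

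The interferon-induced GTPases, which act at the vacuoles of intracellular pathogens, had the lowest median of the lists (−0.42): 5 of 19 fell and 0 rose, and the blocked fit called 8 lower. Gbp2 (ENSMUSG00000028270) measured 7600.4, 9241, 5886 and 5951 CPM in si-control + IFN and 4452, 4984, 3452 and 3681 CPM in si-dnmt + IFN (−0.79 ± 0.19, adjusted p = 0.00425). Igtp, also named Irgm3, measured 1908, 2208, 1418 and 1436 CPM and 1004, 1103, 653 and 721 CPM (−1.002 ± 0.27, adjusted p = 0.00944). Both genes were lower in every si-dnmt + IFN library than in any si-control + IFN library. Gbp6 (−0.997, adjusted p = 0.00712), Gbp8 (−0.78, adjusted p = 0.00566) and Gbp10 (−0.89, adjusted p = 0.0253) made up the rest, and the call of Gbp10 was lost without si-dnmt + IFN replicate 3 or 4 or si-control + IFN replicate 1 or 2 (adjusted p up to 0.103). Irgm1, which restrains other GTPases of the family, gave 0.035 ± 0.20, adjusted p = 0.928, with −0.013 in replicates 1 and 2 alone and 0.087 in 3 and 4 alone. Members of this family are close paralogs, and their reads may be divided among them with error.

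Antiviral genes were called higher more often than lower, though fewer were called (16.7%) than among all genes tested (20.3%). Of 42 tested, 6 rose and 1 fell (median 0.25), and library totals gave 10 and 1. The blocked fit, which called 34.5% of all genes, called 16 and 3. The rises were of the oligoadenylate synthetase family, sensors of double-stranded RNA, and of the Schlafen gene Slfn8. Oas2 measured 22.6, 21.01, 12.7 and 14.4 CPM in si-control + IFN and 69.1, 58.9, 32.9 and 45.6 CPM in si-dnmt + IFN (1.55 ± 0.29, adjusted p = 0.000337). Oas1g (1.22, adjusted p = 0.00322), Oasl1 (0.86, adjusted p = 0.00773), Oasl2 (0.61, adjusted p = 0.01), Oas1a (0.61, adjusted p = 0.0198) and Slfn8 (1.18, adjusted p = 0.000123) followed. The fall was of Ifitm2, a membrane protein that blocks viral entry (−0.58, adjusted p = 0.000399). Isg15 (0.16 ± 0.27, adjusted p = 0.728), Ifit1 (0.18 ± 0.29, adjusted p = 0.725) and Rsad2 (0.74 ± 0.44, adjusted p = 0.251) were not called, Rsad2 only with the block (adjusted p = 0.0318). Of 19 nucleic acid sensors, 5 rose and 0 fell (median 0.35), and the blocked fit called 8 and 1. Ikbke, a kinase downstream of RNA sensors, measured 30.8, 31.9, 27.6 and 30.8 CPM in si-control + IFN and 70.6, 72.6, 80.1 and 76.3 CPM in si-dnmt + IFN (1.31 ± 0.08, adjusted p = 5.93e-12), with little spread in either group. Tlr3 (0.69, adjusted p = 0.00519), Aim2 (0.59, adjusted p = 0.000152), Ddx58, which encodes RIG-I (0.40, adjusted p = 0.00701), and Mb21d1, which encodes cGAS (0.45, adjusted p = 0.0335), completed it. The Mb21d1 call was lost without si-dnmt + IFN replicate 1 or si-control + IFN replicate 2, 3 or 4 (adjusted p up to 0.126).

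Sequence matches to the sites of IFNγ signalling were counted in the same windows, on both strands, as TTCNNNGAA for GAS and as a pair of GAAA runs with 2 bases between them for the ISRE core, where N is any base. Over the 8382 tested genes with a single window, 7.07% held a GAS match and 3.34% an ISRE match, and over all 32851 RefSeq windows 8.30% and 3.44%. Of 10 GTPase genes with a window, 9 held an ISRE match and 6 a GAS match, as did 13 and 4 of 29 antiviral genes. Among 11 chemokines 1 held an ISRE match and 0 a GAS match. The following windows show these letters for members that moved in opposite directions, with the matches in capitals.
Igtp: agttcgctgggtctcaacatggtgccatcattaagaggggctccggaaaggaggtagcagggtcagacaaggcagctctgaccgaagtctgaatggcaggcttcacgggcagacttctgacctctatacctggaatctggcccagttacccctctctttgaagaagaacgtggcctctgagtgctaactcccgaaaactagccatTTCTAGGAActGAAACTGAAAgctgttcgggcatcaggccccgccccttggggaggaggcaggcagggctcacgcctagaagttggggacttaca
Gbp2: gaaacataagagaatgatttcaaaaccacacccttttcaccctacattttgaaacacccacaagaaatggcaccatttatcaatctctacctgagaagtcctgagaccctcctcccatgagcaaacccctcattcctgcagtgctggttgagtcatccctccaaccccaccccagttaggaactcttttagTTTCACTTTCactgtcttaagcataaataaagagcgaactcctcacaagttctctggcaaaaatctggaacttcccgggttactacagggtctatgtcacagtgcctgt
Oas1g: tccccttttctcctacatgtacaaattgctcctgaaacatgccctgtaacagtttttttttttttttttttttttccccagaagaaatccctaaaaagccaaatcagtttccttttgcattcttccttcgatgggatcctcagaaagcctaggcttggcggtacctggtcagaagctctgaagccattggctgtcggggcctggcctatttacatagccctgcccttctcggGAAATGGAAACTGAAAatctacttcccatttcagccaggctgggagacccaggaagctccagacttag
They lie at chr11:58199306-58199605 (plus strand), chr3:142620413-142620712 (plus strand) and chr5:120887564-120887863 (minus strand) of GRCm38.p6. The GAS and ISRE matches of Igtp begin 45 and 34 bases before the start, the ISRE match of Gbp2 59 bases before it, on the opposite strand, and the pair of overlapping ISRE matches of Oas1g 18 and 12 bases before it. A match is a description of letters and was not tested as a binding site.

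**Figure D2:**
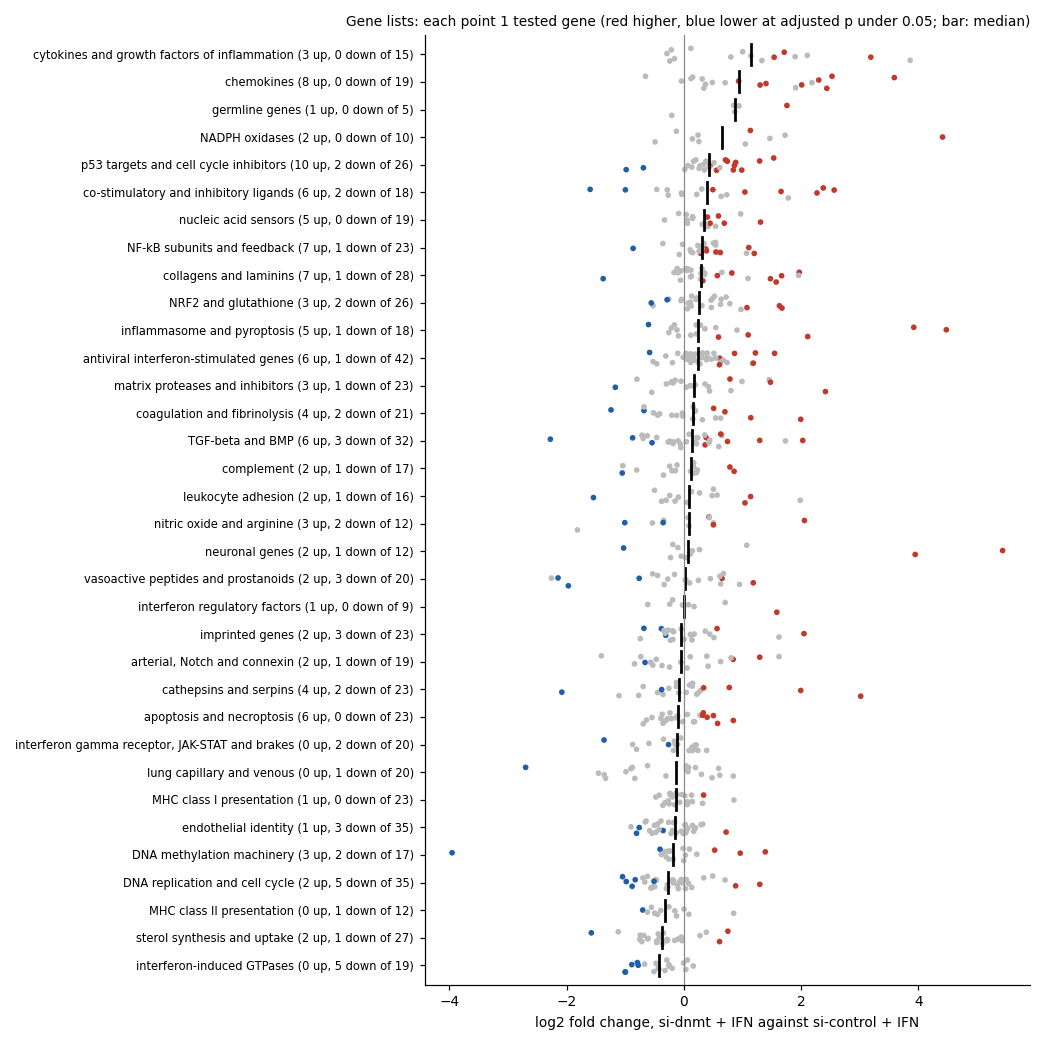
Log2 fold changes (si-dnmt + IFN against si-control + IFN) of the tested members of 34 gene lists, 1 point a gene, red where called higher, blue where called lower and grey where not called, with a black bar at the list's median. Lists are ordered by median, from inflammatory cytokines (1.14) at the top to interferon-induced GTPases (−0.42) at the bottom, and the counts called are in the row names.

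The effect of the siRNA with IFN was set beside that in cells without cytokine, which rests on separate libraries. Without cytokine 2816 genes were called (18.5%), 1461 higher and 1355 lower. Both states called 2016 genes in the same direction, which is 65.0% of the calls with IFN and 71.6% of those without, and 3 genes in opposite directions. Across genes the log2 fold changes of the states correlated with Pearson's r = 0.726 and Spearman's rho = 0.751, a description over 15254 genes that are not independent replicates. A test of the difference between the states called 7 genes (0.0459%), all with a lower effect under IFN, and 158 positive and 246 negative differences had an unadjusted p under 0.05. Together these are a smaller share of the 15254 genes than the 0.05 that this threshold allows when no gene differs. The spread in this fit includes the difference of replicates 1 and 2 from 3 and 4, so the share does not show that the states are alike. Replicates 1 and 2 alone gave 276 calls and replicates 3 and 4 alone 154. The blocked fit called 59 genes, 3 positive and 56 negative, and DESeq2 called 36.

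All 7 genes were higher in every si-dnmt library than in any si-control library when no cytokine was given. Zbp1 (ENSMUSG00000027514), a sensor of Z-form nucleic acid, measured 3.43, 2.76, 3.87 and 2.06 CPM in si-control and 35.1, 38.2, 10.5 and 13 CPM in si-dnmt, and 306, 351, 225 and 245 CPM and 341, 330.4, 242 and 262 CPM with IFN. The siRNA effect was thus 2.99 without and 0.061 with IFN, a difference of −2.93 ± 0.41, adjusted p = 0.000596. Psmb9, an immunoproteasome subunit, went from 1.498 to −0.36 (difference −1.86 ± 0.26, adjusted p = 0.000664) and Apol10b, an apolipoprotein L gene, from 2.12 to 0.27 (−1.85 ± 0.22, adjusted p = 4.62e-05). For both GTPases a rise without cytokine stood against a fall with IFN. Gbp2 measured 76.3, 82.2, 78.7 and 82.6 CPM in si-control and 167, 157, 87.4 and 99.8 CPM in si-dnmt (0.68 ± 0.20, adjusted p = 0.0146), and its difference between states was −1.47 ± 0.28, adjusted p = 0.0349. Gbp8 went from 1.09 to −0.78 (−1.86 ± 0.36, adjusted p = 0.0393). The ISG15-conjugating enzyme gene Ube2l6 (−0.76 ± 0.15, adjusted p = 0.0492) and the predicted gene Gm12250 (−2.84 ± 0.45, adjusted p = 0.0029), both named after their values were seen, were the remaining ones. Without single libraries the test called 4 to 15 genes. Gbp2, Gbp8 and Ube2l6 lost their calls without any 1 of si-dnmt + IFN replicates 1, 3 and 4, si-control + IFN replicates 1 and 2, si-dnmt replicates 1 and 2 and si-control replicates 1 and 2. Gbp8 and Ube2l6 also lost theirs without si-dnmt replicate 4. Ube2l6 further lost its call without si-dnmt + IFN replicate 2 or si-control + IFN replicate 4, without the count filter and in replicates 3 and 4 alone. The counts of 12 to 15 came without si-control + IFN replicate 3, si-dnmt replicate 3 or si-control replicate 3 or 4. Fitted on only the 16 libraries of these 4 groups it called 4 genes, and Psmb9, Apol10b and Gbp8 were the ones of the 7 among them. Apol10b, Gm12250 and the Gbp genes have close paralogs or overlapping models, so their counts are uncertain.

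**Figure D3:**
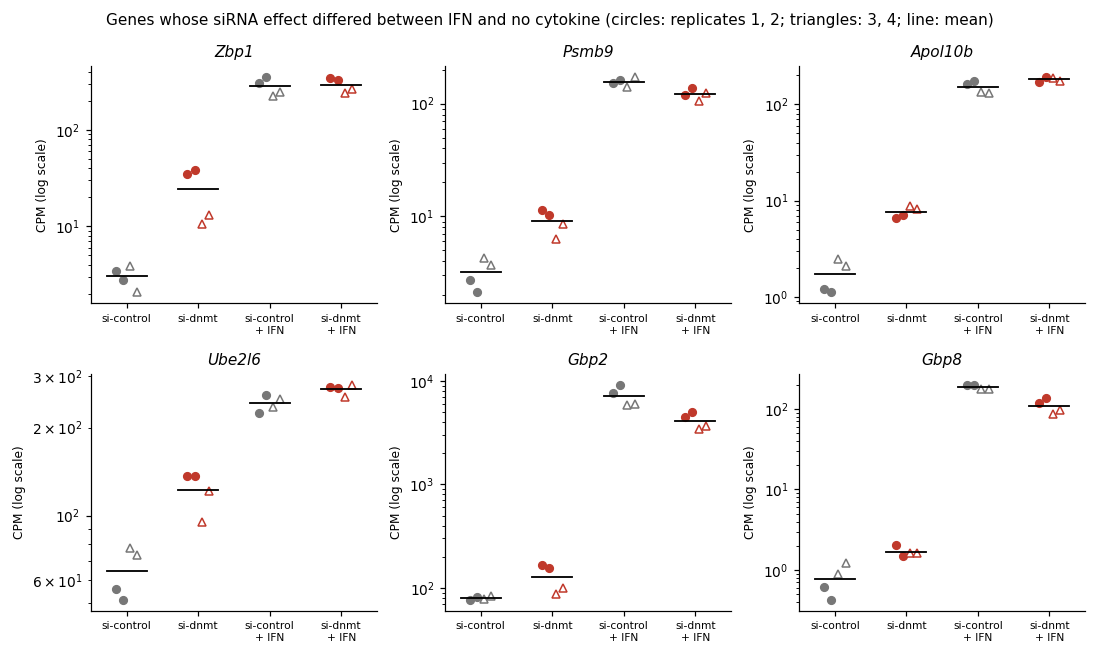
Levels (CPM, log axes) of 6 genes whose siRNA effect differed between IFN and no cytokine, in every library of si-control and si-dnmt without cytokine and with IFN, with circles for replicates 1 and 2, triangles for 3 and 4 and a line at the mean. Without cytokine every si-dnmt library lies above every si-control library, and with IFN the groups overlap for Zbp1, Apol10b and Ube2l6 while si-dnmt lies lower for Psmb9, Gbp2 and Gbp8.

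Most of the interferon lists had more rises without cytokine than with it. Class II presentation did not: of its 12 genes 0 were higher and 1 lower in either state, with a negative difference for 9. Of the 23 class I presentation genes, 15 were called higher and 0 lower without cytokine (median 0.59), against 1 and 0 with IFN, and the fitted difference was negative for 23 of 23. The 19 GTPases had 8 higher and 0 lower without cytokine (median 0.74), against 0 and 5 with IFN, and a negative difference for 19 of 19. Among the 42 antiviral genes 23 were higher and 1 lower without cytokine (median 0.70), against 6 and 1, with a negative difference for 40 of 42. The 19 sensors had 12 higher and 0 lower (median 0.71), against 5 and 0. Over all genes 7396 of 15254 differences were negative. The chemokines had 10 higher and 0 lower without cytokine (median 1.39), against 8 and 0, and 12 of 19 differences negative. In single genes, Tap1 gave 1.13 ± 0.19, adjusted p = 8.41e-05 without cytokine and −0.14 ± 0.18, adjusted p = 0.654 with IFN. Cd274, which encodes the PD-1 ligand PD-L1, gave 1.42 ± 0.25, adjusted p = 0.000187 and −0.27 ± 0.23, adjusted p = 0.466. The differences of Tap1 (−1.27 ± 0.26, adjusted p = 0.0594) and Cd274 (−1.68 ± 0.34, adjusted p = 0.0594) missed the threshold in the unblocked fit. Both passed with the replicate block, at −1.21 (adjusted p = 0.00153) for Tap1 and −1.62 (adjusted p = 0.000148) for Cd274, and both with DESeq2 (adjusted p = 0.000563 and 0.000478). The differences of H2-K1, Gbp6, Igtp, B2m and Irf1 were likewise negative and called with the block (adjusted p = 3.89e-05 for H2-K1, 0.00481 for Gbp6, 0.00123 for Igtp, 0.000614 for B2m and 0.00101 for Irf1), against adjusted p of 0.379 and above without it. Outside these lists, Casp1 gave 3.78 without cytokine and 4.48 with IFN, Nox1 3.70 and 4.41, and Aqp1 −2.67 and −2.70.

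**Figure D4:**
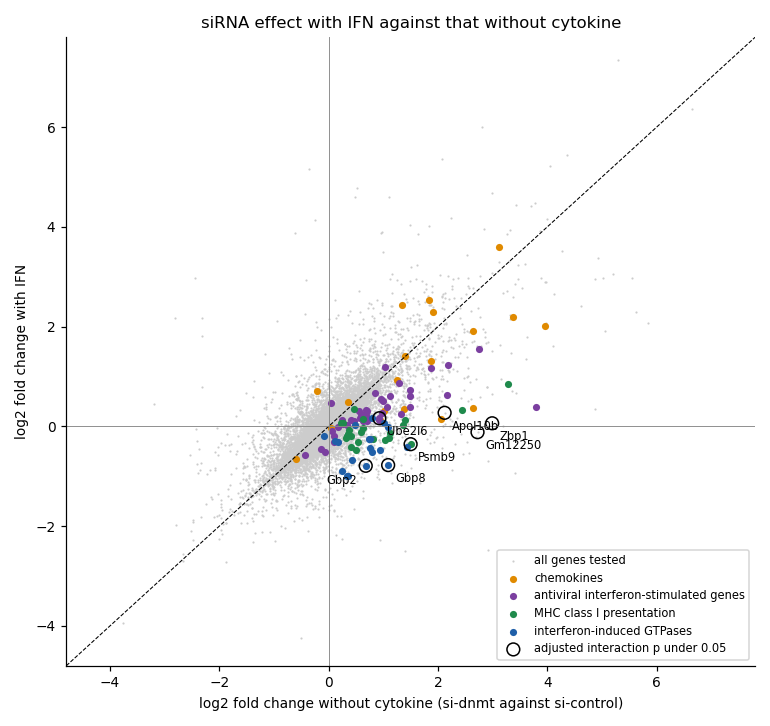
The log2 fold change with siRNA against Dnmt1 under IFN (vertical axis) against that without cytokine (horizontal axis) for each of 15254 genes, with members of 4 lists coloured, the line of equal effect dashed and the 7 genes called as differing circled. All 19 interferon-induced GTPases and all 23 class I presentation genes lie below the line of equal effect.

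Co-stimulatory and inhibitory ligands had 6 rises and 2 falls among 18 tested (median 0.40). Tnfsf4, the OX40 ligand, measured 1.63, 1.66, 2.67 and 1.40 CPM in si-control + IFN and 11.2, 11.2, 11.2 and 10.1 CPM in si-dnmt + IFN (2.56 ± 0.24, adjusted p = 2.15e-08). Cd40 measured 0.841, 0.884, 0.709 and 0.216 CPM and 2.95, 3.28, 3.13 and 3.49 CPM (2.27 ± 0.34, adjusted p = 2.44e-05). Icosl stayed at or below 0.546 CPM in every library here, with 2.38 ± 0.65, adjusted p = 0.00932. Its call was lost in replicates 3 and 4 alone, and its fitted change was 4.24 without si-control + IFN replicate 4, which held most of the control counts. Ido1, a tryptophan-catabolising enzyme that restrains T cells (1.04, adjusted p = 0.0321), Cd276, a member of the B7 family (0.49, adjusted p = 0.000254), and Cd80 (1.66, adjusted p = 0.0387) were the other rises, and Cd80, which binds CD28, lost its call without si-dnmt + IFN replicate 3 or 4 or si-control + IFN replicate 1, 2 or 4 (adjusted p up to 0.116). Without si-control + IFN replicate 4 the list had 4 rises and 2 falls, and with library totals 9 and 2. The falls were of Fgl2, a secreted T-cell inhibitor (−1.60, adjusted p = 0.000437), and Pvr, the ligand of TIGIT (−0.997, adjusted p = 0.00144). Cd274 overlapped between groups and had opposite signs within the pairs of replicates (−0.53 and 0.17).

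Of 16 leukocyte adhesion genes, 2 rose and 1 fell (median 0.095), and the blocked fit called 4 and 3. Vcam1, the ligand of VLA-4 on lymphocytes, measured 129, 121, 108 and 92.1 CPM in si-control + IFN and 223, 235, 257 and 211 CPM in si-dnmt + IFN (1.04 ± 0.11, adjusted p = 1.29e-07). Sele, E-selectin, measured 20.5, 15.3, 38.1 and 34.1 CPM and 52.7, 46.3, 73.2 and 65.7 CPM (1.14 ± 0.25, adjusted p = 0.00147). The groups did not overlap for either gene. Icam1 was called only with the block (0.57 ± 0.22, adjusted p = 0.0629, with the block adjusted p = 0.000823). The fall was of the junctional molecule Jam3 (−1.54, adjusted p = 0.00588). Of 18 inflammasome and pyroptosis genes, 5 rose and 1 fell (median 0.25). After Casp1 and P2rx7 these were Nlrp3, at most 0.506 CPM with a count ratio of 4.41-fold (1.96 to 11.6), Naip5, a sensor of flagellin (1.10, adjusted p = 0.0185), and Aim2, and the fall was of Casp12 (−0.60, adjusted p = 0.0232). The Naip5 call was lost without si-dnmt + IFN replicate 1 or si-control + IFN replicate 3 or 4 (adjusted p up to 0.0681). Casp4, the cytosolic sensor of lipopolysaccharide, gave 0.28 ± 0.14, adjusted p = 0.144 and passed with the block (adjusted p = 0.0018). Of 10 NADPH oxidase genes, Nox1 and Nox3 rose (median 0.65), the latter (1.13, adjusted p = 0.0393) losing its call without si-dnmt + IFN replicate 3 or 4 or si-control + IFN replicate 1, 3 or 4 (adjusted p up to 0.136).

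Few endothelial identity genes passed the test in the unblocked fit. Of 35 genes, 1 rose and 3 fell (11.4% called, median −0.16), and library totals gave 2 and 2. The blocked fit, which called 34.5% of all genes, called 2 higher and 9 lower. VE-cadherin (Cdh5) gave 0.054 ± 0.23, adjusted p = 0.903 and Pecam1 −0.0095 ± 0.17, adjusted p = 0.979, both with a sign that turned in some alternatives. Kdr, the main VEGF receptor, measured 275, 273, 252 and 247 CPM in si-control + IFN and 431, 386, 483 and 427 CPM in si-dnmt + IFN (0.72 ± 0.14, adjusted p = 0.000546). The falls were of the transcription factor Ets1 (−0.81, adjusted p = 0.00194), of Ramp2, the partner of the adrenomedullin receptor (−0.76, adjusted p = 0.000433), and of Nos3, the endothelial nitric oxide synthase (−0.35, adjusted p = 0.0416), whose call was lost with library totals (adjusted p = 0.14) and without si-dnmt + IFN replicate 1, 2 or 3 or si-control + IFN replicate 2 or 4 (adjusted p up to 0.259), and whose change was −0.20 without si-control + IFN replicate 4. Of 20 lung capillary and venous genes only Aqp1 fell and 0 rose in the unblocked fit (median −0.13). The blocked fit called 1 higher and 9 lower. Of 19 arterial, Notch and connexin genes, the Notch ligands Dll1 (1.29, adjusted p = 0.000168) and Jag1 (0.84, adjusted p = 9.39e-05) rose and their receptor Notch1 fell (−0.66, adjusted p = 0.000148). The list median was −0.052, or 0.041 with library totals, and the blocked fit called 4 and 6. Gja4, a connexin of arterial ECs, was at or below 0.104 CPM in every library, too low for a direction.

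Genes of vessel tone and of clotting moved in both directions. Of 20 vasoactive peptide and prostanoid genes, 2 rose and 3 fell (median 0.028), and the blocked fit called 3 and 5. Ramp3, a co-receptor for calcitonin family peptides, measured 67.7, 81.9, 18.2 and 24.5 CPM in si-control + IFN and 15.1, 16.1, 4.60 and 7.82 CPM in si-dnmt + IFN (−2.15 ± 0.47, adjusted p = 0.00147). The vasoconstrictor gene Edn1 rose (0.65, adjusted p = 0.00873), a call lost without si-dnmt + IFN replicate 3 (adjusted p = 0.0541). Calcb, a calcitonin gene-related peptide, fell (−1.97, adjusted p = 0.0276), a call lost without si-dnmt + IFN replicate 3 or 4 or si-control + IFN replicate 3 or 4 (adjusted p up to 0.0972). Ptgs2 and Ramp2, described above, were the other called members. Of 12 nitric oxide and arginine genes, 3 rose and 2 fell (median 0.081). Nos2, the inducible synthase, measured 5.60, 16.1, 1.36 and 1.94 CPM and 35.8, 44.0, 13.2 and 11.7 CPM (2.06 ± 0.50, adjusted p = 0.00411). Its groups overlapped across the pairs of replicates but not within them, and its change was 3.13 without si-control + IFN replicate 2, the highest control library. Gch1, which makes the cofactor tetrahydrobiopterin (0.50, adjusted p = 0.00365), and the arginine carrier gene Slc7a1 (0.43, adjusted p = 0.0188) also rose, the latter call lost without si-dnmt + IFN replicate 3 or si-control + IFN replicate 3 (adjusted p up to 0.0575). Ddah2, which degrades an inhibitor of the synthases, fell (−1.01, adjusted p = 7.17e-05) with Nos3.

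Of 21 coagulation and fibrinolysis genes, 4 rose and 2 fell (median 0.15). The urokinase receptor gene Plaur (0.70, adjusted p = 0.00527) and the thrombin receptor gene F2r (0.51, adjusted p = 0.00991) were among the rises, with Thbs1. The falls were of F8, clotting factor VIII (−1.24, adjusted p = 0.0396), and of S100a10, a plasminogen receptor subunit (−0.68, adjusted p = 0.00546). The F8 call was lost without si-dnmt + IFN replicate 3 or 4 or si-control + IFN replicate 1 or 2 (adjusted p up to 0.142). Of 17 complement genes, 2 rose and 1 fell (median 0.11), and the blocked fit called 2 and 4. The rises were of Cd55 (0.79, adjusted p = 3.46e-05), which protects cells from complement, and C3ar1 (0.86, adjusted p = 0.0212), a receptor for a fragment of C3. The call of C3ar1 was lost without si-dnmt + IFN replicate 3 or 4 or si-control + IFN replicate 4 (adjusted p up to 0.0969). Of 23 cathepsins and serpins, 4 rose and 2 fell (median −0.086, or 0.0081 with library totals), and the blocked fit called 5 and 6. Besides Ctss and Serpinb9 these included Ctsf (0.77, adjusted p = 0.00631), Ctso (0.34, adjusted p = 0.0057) and the collagen chaperone gene Serpinh1 (−0.38, adjusted p = 0.0106).

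Collagen and laminin genes rose more often than they fell. Of 28 tested, 7 rose and 1 fell (28.6% called, against 20.3% of all genes, median 0.30). The blocked fit called 14 and 1. The rises included the basement membrane chain gene Lamc1 (0.82, adjusted p = 2.96e-07), Col6a1 (1.97, adjusted p = 0.00046), Lama3 (1.57, adjusted p = 0.00372), Col8a1 (0.57, adjusted p = 0.0244) and Hspg2, perlecan (0.32, adjusted p = 0.0341). Col6a3 was called (1.48, adjusted p = 0.0476), but lost its call whichever of the 8 libraries was left out (adjusted p = 0.0619 to 0.124). The fall was of Col3a1, the fibrillar collagen (−1.38 ± 0.30, adjusted p = 0.00139). Of 23 matrix proteases and inhibitors, 3 rose and 1 fell (17.4% called, a smaller share than of all genes, median 0.17). The blocked fit called 6 and 4. The metalloprotease genes Adam12 (2.41 ± 0.41, adjusted p = 0.000111) and Mmp15 (1.48, adjusted p = 0.00124) rose and Mmp2, gelatinase A, fell (−1.17, adjusted p = 3.97e-06). Adam19 was the other rise (0.79, adjusted p = 0.04), a call lost without si-dnmt + IFN replicate 3 or 4 or si-control + IFN replicate 1, 2 or 3 (adjusted p up to 0.15).

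Of 32 TGF-β and BMP genes, 6 rose and 3 fell (median 0.14), and the blocked fit called 9 and 5. Smad9, a transducer of BMP signals, measured 0.672, 0.468, 1.04 and 1.94 CPM in si-control + IFN and 3.00, 2.77, 6.53 and 4.53 CPM in si-dnmt + IFN (2.03 ± 0.39, adjusted p = 0.000428). The inhibitory Smad7 (1.29, adjusted p = 0.000925) and Smad6 (0.74, adjusted p = 0.0218), Smad3 (0.38, adjusted p = 0.000287), Tgfb2 (0.63, adjusted p = 0.00172) and the receptor gene Acvr1 (0.36, adjusted p = 0.00255) rose, and Smad5 (−0.87, adjusted p = 0.0065), Bmp4 (−0.54, adjusted p = 0.00463) and the BMP antagonist Grem1 fell, the last at most 0.702 CPM with a count ratio of 5.18-fold (2.54 to 11.6). Among 5 tested markers of pericytes and smooth muscle 1 rose and 0 fell (median 1.62), and the blocked fit called 3 and 0. The rise was of Acta2, smooth muscle actin, which measured 24.9, 20.0, 67.4 and 55.0 CPM and 129, 83.0, 227 and 204 CPM (1.94 ± 0.52, adjusted p = 0.0081). Its groups did not overlap. The part of other cells in this level was not tested, and fewer or more cells of a type and a change of RNA per cell cannot be told apart in bulk libraries. Among 6 tested fibroblast markers 0 rose and 1, Col3a1, fell (median 0.11), and the blocked fit called 1 and 2. Of 4 leukocyte markers, 3 epithelial markers and 2 melanocyte markers tested, 0 were called, with medians of −0.34, 0.15 and −0.21, and the blocked fit called 1 leukocyte marker lower.

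In the joint list of p53 targets and cell cycle inhibitors, 10 of 26 were higher and 2 lower (46.2% called, median 0.42). The blocked fit called 13 and 2. Ccng1, cyclin G1, measured 207, 183, 308 and 236 CPM in si-control + IFN and 505, 520.3, 665 and 597 CPM in si-dnmt + IFN (1.29 ± 0.14, adjusted p = 1.29e-07). Mdm2, the ligase that restrains p53, measured 128, 123, 164 and 151 and 223, 219.5, 369.7 and 310.1 CPM (0.99 ± 0.21, adjusted p = 0.00132), and Cdkn1a, the inhibitor p21, 196, 202, 193 and 208 and 278, 271, 301 and 327 CPM (0.56 ± 0.15, adjusted p = 0.00767). The groups did not overlap for these genes. Ddit4l (1.53, adjusted p = 0.00765), Plk2 (0.88, adjusted p = 0.0181), Aen (0.86, adjusted p = 4.14e-07), the death receptor gene Fas (0.84, adjusted p = 0.00944), Ei24 (0.74, adjusted p = 3.55e-07), Sesn2 (0.71, adjusted p = 0.00652) and Zmat3 (0.44, adjusted p = 0.000994) rose too. The falls were of a pair of cyclin-dependent kinase inhibitors, Cdkn1b (−0.98 ± 0.09, adjusted p = 6.19e-09) and Cdkn2c (−0.69, adjusted p = 0.046). Cdkn1a was the only such inhibitor among the rises. Of 23 apoptosis and necroptosis genes, 6 rose and 0 fell (median −0.11), and the blocked fit called 6 and 5. The rises included Fas, the caspase gene Casp8 (0.58, adjusted p = 0.000262), the pore-forming Bak1 (0.50, adjusted p = 1.78e-05), and Ripk1 (0.33, adjusted p = 0.0281) and Bcl2l1 (0.32, adjusted p = 0.0251), which hold death signals in check or pass them on.

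Replication and cell cycle genes differed between the pairs of replicates. Of 35 tested, 2 rose and 5 fell (median −0.27), the blocked fit called 4 and 8, and library totals gave 2 and 2. Ccne1, cyclin E1 (1.29, adjusted p = 1.77e-06), and Ccnd3, cyclin D3 (0.88, adjusted p = 0.000128), rose, and the kinase gene Cdk6 (−1.05, adjusted p = 4.36e-06), the mitotic activator gene Cdc20 (−0.98, adjusted p = 0.0315), the nucleotide synthesis genes Rrm2 (−0.88, adjusted p = 0.0231) and Tyms (−0.51, adjusted p = 0.0255) and the mitotic cyclin gene Ccnb2 (−0.83, adjusted p = 0.0365) fell. Without si-control + IFN replicate 4 the counts were 2 and 1. Within replicates 1 and 2 the list median was 0.18, and within replicates 3 and 4 it was −0.62. Mki67, the proliferation marker, measured 165, 151, 397 and 341 CPM in si-control + IFN and 188, 151, 169 and 157 CPM in si-dnmt + IFN. It was thus high only in si-control + IFN replicates 3 and 4, and its log2 fold change was 0.085 in the first pair and −1.18 in the second, −0.67 ± 0.28, adjusted p = 0.0906 over all. Cdc20 measured 60.0, 53.2, 130.1 and 126 CPM and 44.9, 42.4, 47.6 and 52.2 CPM, again highest in si-control + IFN replicates 3 and 4. Its call was lost with library totals (adjusted p = 0.0554) and without si-dnmt + IFN replicate 1, 2, 3 or 4 or si-control + IFN replicate 3 or 4 (adjusted p up to 0.125).

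Tested over all genes, the siRNA effect with IFN differed between the pairs of replicates for 806 genes (5.28%), with 220 larger in replicates 3 and 4 and 586 smaller, in signed log2 fold change. Among them were 198 of the 3103 called genes. Of the called genes 3082 had the same direction in both pairs and 21 had opposite ones. The target itself differed. Dnmt1 fell by 2.94 in replicates 1 and 2 and by 4.97 in 3 and 4 (difference −2.05 ± 0.15, adjusted p = 1.07e-09). Of the 35 cell cycle genes 24 differed, all with a more negative effect in replicates 3 and 4. Depdc1b, looked up after its values were seen, had one of the most negative differences (−2.21 ± 0.27, adjusted p = 2.56e-06). The heat shock genes Hspa1a (2.65 ± 0.30, adjusted p = 1.41e-06) and Hspa1b (2.10 ± 0.22, adjusted p = 4.47e-07), also looked up afterwards, went the other way. Hspa1a measured 22.2, 35.8, 13.4 and 20.8 CPM in si-control + IFN and 19.5, 17.6, 73.4 and 63.1 CPM in si-dnmt + IFN, so that it was high only in si-dnmt + IFN replicates 3 and 4. Thbs1 (1.08 ± 0.16, adjusted p = 3.6e-05) and Hmox1 (1.22 ± 0.16, adjusted p = 7.37e-06) rose in both pairs and more in replicates 3 and 4. What separates the pairs is not given in the sources used here, and the part of proliferation, depth of silencing or siRNA sequence in these differences was not tested.

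**Figure D5:**
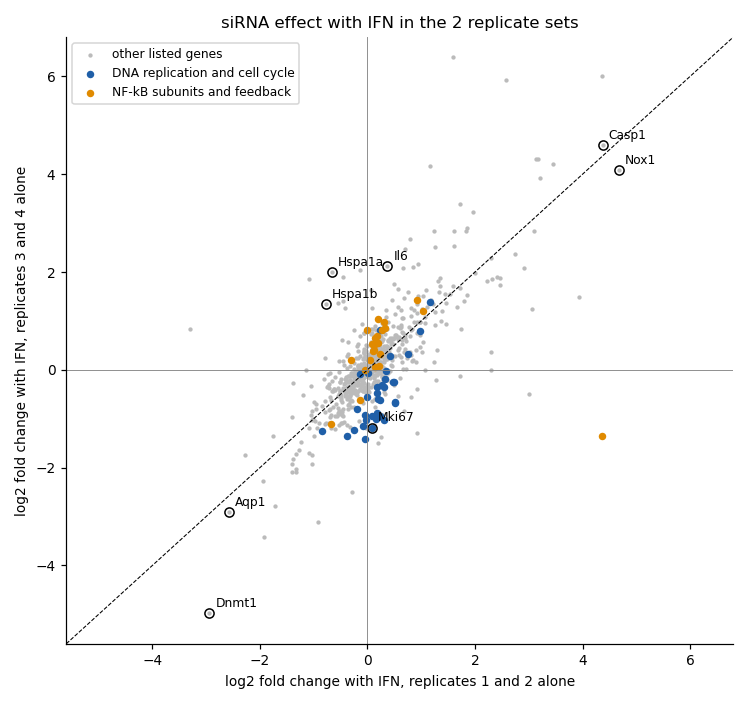
The log2 fold change with siRNA against Dnmt1 under IFN in replicates 3 and 4 alone (vertical axis) against that in replicates 1 and 2 alone (horizontal axis) for tested genes of the lists, with cell cycle genes in blue, NF-κB genes in orange, other listed genes in grey and the line of equal effect dashed. Of the cell cycle genes 32 of 35 lie below the line (list medians 0.18 and −0.62), and most NF-κB genes lie above it (medians 0.15 and 0.53).

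Imprinted, germline and neuronal genes include many that are known to depend on DNA methylation. Of 35 imprinted genes listed 23 were tested, of which 2 rose and 3 fell (median −0.046, which turned to 0.046 with library totals), and the blocked fit called 3 and 5. Peg10 measured 2.13, 0.832, 5.89 and 3.62 CPM in si-control + IFN and 8.003, 7.74, 18.4 and 17.3 CPM in si-dnmt + IFN (2.05 ± 0.45, adjusted p = 0.00153). Igf2r (0.57, adjusted p = 0.013) also rose, a call lost without si-dnmt + IFN replicate 1 (adjusted p = 0.0636), and Mcts2 (−0.68, adjusted p = 0.01) fell. Ndn (−0.38, adjusted p = 0.0348) and Sgce (−0.31, adjusted p = 0.0243) fell too, with calls lost under library totals (adjusted p = 0.0911 and 0.121), that of Ndn also without si-dnmt + IFN replicate 1, 3 or 4 or si-control + IFN replicate 2 or 4 (adjusted p up to 0.12), and that of Sgce without si-dnmt + IFN replicate 1, 3 or 4 or si-control + IFN replicate 1 or 3 (adjusted p up to 0.0728). H19 was too low to test. Of 32 germline genes listed only 5 were tested, and Piwil2, of the piRNA pathway, rose (1.76, adjusted p = 0.00427) at no more than 0.874 CPM. Rhox5, an X-linked homeobox gene known to be silenced by methylation, gave 0.87 ± 0.41, adjusted p = 0.145. Of 12 neuronal genes, Nefm and Lhx2 rose and Gap43 fell (median 0.071). Lhx2 was at 0 in all si-control + IFN libraries and at 0.111, 0.126, 0.414 and 0.317 CPM in si-dnmt + IFN, at least 1.49-fold higher against the floor of 3 counts per library. Gap43, a growth cone protein, measured 39.0, 35.6, 65.8 and 65.7 CPM and 15.8, 20.6, 30.2 and 34.1 CPM (−1.03 ± 0.30, adjusted p = 0.0134), and lost its call without si-dnmt + IFN replicate 1 or si-control + IFN replicate 3 or 4 (adjusted p up to 0.0596).

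Of 27 genes of sterol synthesis and uptake, 2 rose and 1 fell (median −0.37), and the blocked fit called 4 and 13. Hmgcs1, which makes HMG-CoA, measured 132, 125, 90.7 and 74.0 CPM in si-control + IFN and 43.6, 54.4, 21.8 and 21.8 CPM in si-dnmt + IFN (−1.58 ± 0.45, adjusted p = 0.0133), a call lost without si-dnmt + IFN replicate 3 or 4 (adjusted p up to 0.0547). The lipoprotein receptor gene Scarb1 rose (0.61, adjusted p = 0.000112), as did the sterol enzyme gene Hsd17b7 (0.75, adjusted p = 0.0456), whose call was lost without si-dnmt + IFN replicate 1, 2, 3 or 4 or si-control + IFN replicate 1, 3 or 4 (adjusted p up to 0.133). Of 26 NRF2 and glutathione genes, 3 rose and 2 fell (median 0.26), and the blocked fit called 11 and 4. Hmox1, heme oxygenase, measured 139, 166, 140.2 and 155 CPM and 319, 268, 691 and 635 CPM (1.67 ± 0.38, adjusted p = 0.00213). Catalase (Cat, 1.08, adjusted p = 0.0174) and Osgin1 (1.63, adjusted p = 0.0438) rose with it. The Cat call was lost without si-dnmt + IFN replicate 3 or 4 or si-control + IFN replicate 1 (adjusted p up to 0.0668), and the Osgin1 call without si-dnmt + IFN replicate 3 or 4 or si-control + IFN replicate 1, 2, 3 or 4 (adjusted p up to 0.161). Txn1, thioredoxin (−0.56, adjusted p = 0.0129), and Gpx4, which reduces lipid peroxides (−0.29, adjusted p = 0.0242), fell. The Txn1 call was lost without si-dnmt + IFN replicate 1 (adjusted p up to 0.0505). The Gpx4 call was lost with library totals (adjusted p = 0.134) and without si-dnmt + IFN replicate 1 or 3 or si-control + IFN replicate 2 or 4 (adjusted p up to 0.0868).

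Transcripts of the mitochondrial genome were lower. Of 23 tested, 10 fell and 0 rose (median −0.49), and without cytokine 9 fell (median −0.56). Their share of all counts was 3.25% to 4.89% under the control siRNA and 2.40% to 3.24% under si-dnmt, adjoining ranges that did not overlap. The gene mt-Co3, a subunit of cytochrome oxidase, measured 3001, 2659, 4047 and 3355 CPM and 1568, 1959, 2141 and 2110.5 CPM (−0.75 ± 0.13, adjusted p = 0.000194). The most abundant, mt-Co1, measured 12846, 13117, 17146 and 14630.4 CPM and 10034, 11472, 11174 and 11245 CPM (−0.39 ± 0.11, adjusted p = 0.0134), and mt-Nd3, a subunit of complex I, had the largest fall (−1.10 ± 0.27, adjusted p = 0.00436). Si-control + IFN replicate 4, which stood apart in mt-Rnr1 and mt-Rnr2, was within the range of the other controls for mt-Co3 and mt-Co1. These genes, chosen after their values were seen, are not counted in any list above.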

How the data were processed

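Counts per gene were deposited for each library. Per the submitters' processing notes the authors used cutadapt 4.9, FastQC 0.12.1, MultiQC 1.27.1, featureCounts and DESeq2. No aligner, genome build or strand setting was given in the sources used here. Groups were taken from the labels. Of 54532 gene identifiers, 15254 passed filterByExpr (minimum count 10). edgeR 4.0.16 in R 4.3.3 (limma 3.58.1) fitted 8 group means to all 32 libraries with TMM factors and two-sided quasi-likelihood tests, adjusted by Benjamini-Hochberg over all genes tested. Library totals of 17908206 to 33500030 counts set the precision, and intervals and floors cover counting error only. Standard errors are derived from the fitted log2 fold change and its test statistic. The code was tested on simulated data.

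The genes, lists and key genes were chosen with earlier results of these data known. Named genes were 40 key genes, the 12 largest rises and 12 largest falls (adjusted p under 0.05, at least 1 CPM in the higher group, groups not overlapping, same direction in both pairs of replicates), the 5 most abundant 2-fold rises and falls, at most 4 called members a list by size, and up to 8 genes by the difference between states. Some genes that these rules name, or that the lists count, are not reported here. Other called members were named after their values were seen and were not recomputed without single libraries.

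Replicate numbers come from the labels. Deviations from the group means correlated across genes between si-control + IFN and si-dnmt + IFN libraries of the same number (0.431, 0.415, 0.440 and 0.470 for replicates 1 to 4). Unlike numbers within replicates 1 and 2 or within 3 and 4 gave 0.353 to 0.447, and between these pairs −0.509 to −0.366. The correlations thus set the pairs of replicates apart and do not single out equal numbers. Pairing by number in the blocked fit rests on the labels. Replicates are described as biological, and p-values set a change against the spread within groups, estimated from all 32 libraries. In the unblocked fit that spread includes the difference of replicates 1 and 2 from 3 and 4. Alternatives were DESeq2 1.42.0, RLE factors, library totals, other filters, the table merged by symbol, the replicate block, the pairs of replicates, robust dispersion, only the libraries compared, and leaving out each library. Promoter windows are RefSeq's (GRCm38.p6), matched by symbol.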

Additional observations from a re-analysis of the deposited data

Results flagged for a closer look

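Among 290 groups of 4 libraries examined for the named genes, 5 held a library apart from the other 3 by Dixon's criterion at the 95% level, which chance alone exceeds in about 1 of 20 groups. In si-dnmt + IFN, Cdkn1b measured 86.0 CPM in replicate 2 against 71.0 to 73.4 CPM in the others. Casp8 measured 49.0 CPM in replicate 1 against 58.5 to 60.0 CPM. Tnfsf4 measured 10.1 CPM in replicate 4 against 11.2 CPM in each of the others, and Socs1 60.3 CPM in replicate 4 against 44.6 to 46.4 CPM. In si-control + IFN, Oas1g measured 1.36 CPM in replicate 3 against 2.81 to 3.07 CPM.

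The siRNA effect with IFN differed from that without cytokine by edgeR's test of the difference for 7 genes, with log2 differences of −0.76 for Ube2l6, −2.93 for Zbp1, −1.47 for Gbp2, −1.86 for Gbp8, −1.85 for Apol10b, −2.84 for Gm12250 and −1.86 for Psmb9.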

How the results depend on the processing

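Against 3103 genes called with IFN, DESeq2 called 3408 (3087 shared), RLE factors 3095, library totals 3403 (2631 shared), no low-count filter 2252, a minimum count of 50 3073, the table merged by symbol 3103, robust dispersion 3107, only the 8 libraries compared 2356 (2182 shared) and replicates 1 and 2 alone 3877 (2237 shared). Calls numbered 5380 with the replicate set as a term, 5853 in replicates 3 and 4 alone (2803 shared) and 2338 to 2995 without single libraries. The 2-fold calls numbered 1129 in replicates 3 and 4 alone and 487 to 702 without single libraries, against 636. Pairing the libraries by replicate number, as a block, gave 5258 calls with IFN and 59 for the difference between states, and changed no other call of a gene named here than those given beside their results. That difference (7 genes) gave 36 calls with DESeq2, 14 with RLE factors, 13 with library totals, 12 without the filter, 14 with a minimum count of 50, 67 with the replicate set as a term, 276 in replicates 1 and 2 alone, 154 in replicates 3 and 4 alone, 4 with only the libraries compared and 4 to 15 without single libraries. The difference between the pairs of replicates (806 genes) gave 499 to 901 without single libraries, the lowest without si-control + IFN replicate 2, with the lone library left assumed to vary like the others.

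None of the 137 called named genes changed direction. Calls were kept without each single library for 108, and 29 were lost without at least 1. Library totals lost 6, the fit without a filter 10, replicates 1 and 2 alone 15, replicates 3 and 4 alone 5 and only the libraries compared 9. A minimum count of 50 tested 125 of the 137. Sign changes were of genes not called, and the cause was not tested. They were Cd274 (0.17) and Gja4 (0.84) in replicates 3 and 4 alone, Pecam1 with library totals (0.085), without the filter (0.0024) and in replicates 3 and 4 alone (0.0085), and Mki67 (0.085), Ifit1 (−0.013), Socs1 (−0.068) and Irgm1 (−0.013) in replicates 1 and 2 alone. Without single libraries the ranges crossed 0 for Pecam1 (−0.095 to 0.11), Cd74 (−0.42 to 0.23), Zbp1 (−0.037 to 0.18), Cdh5 (−0.075 to 0.21), Ifit1 (−0.0021 to 0.38), Irgm1 (−0.084 to 0.18) and Gja4 (−1.10 to 0.56). With library totals the lists of sensors (8 higher, 0 lower), NF-κB genes (11 and 1), p53 targets (12 and 1) and imprinted genes (3 and 1) had more rises. So had all genes tested, with 2420 higher and 983 lower against 1648 and 1455. Without si-control + IFN replicate 4 complement had 1 and 0. Genes with few counts (a library's floor is 0.0896 to 0.168 CPM) allow no small difference to be seen.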
